A study of Drosophila melanogaster with 12 samples.

Results

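The genes described here encode subunits of the proteasome, the protease complex that degrades proteins tagged with ubiquitin, as measured in heads of male Drosophila melanogaster. They were taken by name from the array annotation: every probe set assigned to 1 gene whose symbol starts with Prosalpha, Prosbeta, Rpn or Rpt followed by a digit. A probe set is the group of short DNA probes that an Affymetrix array uses to measure a transcript. This gave 41 probe sets for 39 genes, among 14010 probe sets on the array and 10844 genes named by a probe set of their own. Of these genes, 21 belong to the core particle and 18 to the regulatory particle. A further probe set, annotated to both Prosalpha1 and its paralog Prosalpha1R, was left out because it names several genes. Prosbeta1, Rpn9, Rpn10, Rpt1 and Rpt6 were not analysed here.

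Flies of the laboratory wild type Canton-S came from 4 populations at generation 21 of selection, with 3 arrays each and 12 arrays in all. Aggressive I and aggressive II descended from males selected for fighting. Neutral I and neutral II descended from males drawn at random from cages of 120 after 15 to 30 aggressive males had been taken out, and by the study's own description this selection for less aggression had no significant effect. All males were 5 days old and were frozen in groups of about 120 and stored in groups of about 40, so an array measures pooled heads of many flies. Nothing in the labels says that the arrays of a population stem from separately reared flies, and the spread between them may be technical. In bulk heads, fewer cells of a type and less RNA per cell cannot be told apart. The line label of 2 neutral I arrays lacks the word selected that all other arrays carry, and they were kept in their titled group.

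The proteasome consists of a barrel, the core particle, and a cap, the regulatory particle. In the core, outer rings of alpha subunits (Prosalpha) form a gate, and inner rings of beta subunits (Prosbeta) hold the protease sites. The cap recognises ubiquitin-tagged proteins, removes the ubiquitin and threads the unfolded chain into the core. Its base holds a ring of ATPases (Rpt) with the scaffold subunits Rpn1 and Rpn2, and its lid holds Rpn11, which cuts ubiquitin off the substrate. Since the complex needs its subunits in fixed ratios, their genes are commonly expressed together. Drosophila also carries extra copies of several subunit genes, marked by T or R after the number, many of them expressed in the testis.

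Values are MAS5 signals, the intensity that the Affymetrix algorithm gives a probe set, scaled to the same mean on every array. Median signal per array lay between 962.4 and 1050 and the mean correlation of an array with the other 11 between 0.949 and 0.962. Marker genes of the labelled tissue were measured: the neuronal genes nSyb and elav had median signals of 12508 and 2641, and the photoreceptor genes trp and inaC 37944 and 31810. Other neuronal genes were dim, with a median of 767 for para and of 238.1, 266 and 461.6 for the probe sets of brp. The filter on dim probe sets, a mean signal over 641.2, kept 8379 probe sets, among them 26 of the 41 described here. These 26 represent 26 different genes, 12 of the core particle and 14 of the regulatory particle. The 15 left out are all 13 paralogs and the second probe sets of Prosalpha7 and Prosbeta6.

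The standard subunit genes were expressed in every head sample, with signals from 1424 to 21957 over the 26 probe sets and 12 arrays. Each varied little. The highest array of a gene was 1.38 times its lowest array in the median over the 26 genes, from 1.16 times to 2.41 times (Rpn2). On the log2 scale the SD over the 12 arrays had a median of 0.16 over the 26 genes, against 0.24 over all 8379 kept probe sets. The kept probe sets include dimmer ones, with means down to 641.2, and this comparison was not matched for signal. Rpn5, a lid subunit, and Prosbeta7, a beta ring subunit, were among the steadiest, with SDs of 0.092 and 0.090. Rpn2 had the largest SD, 0.40.

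**Figure D1:**
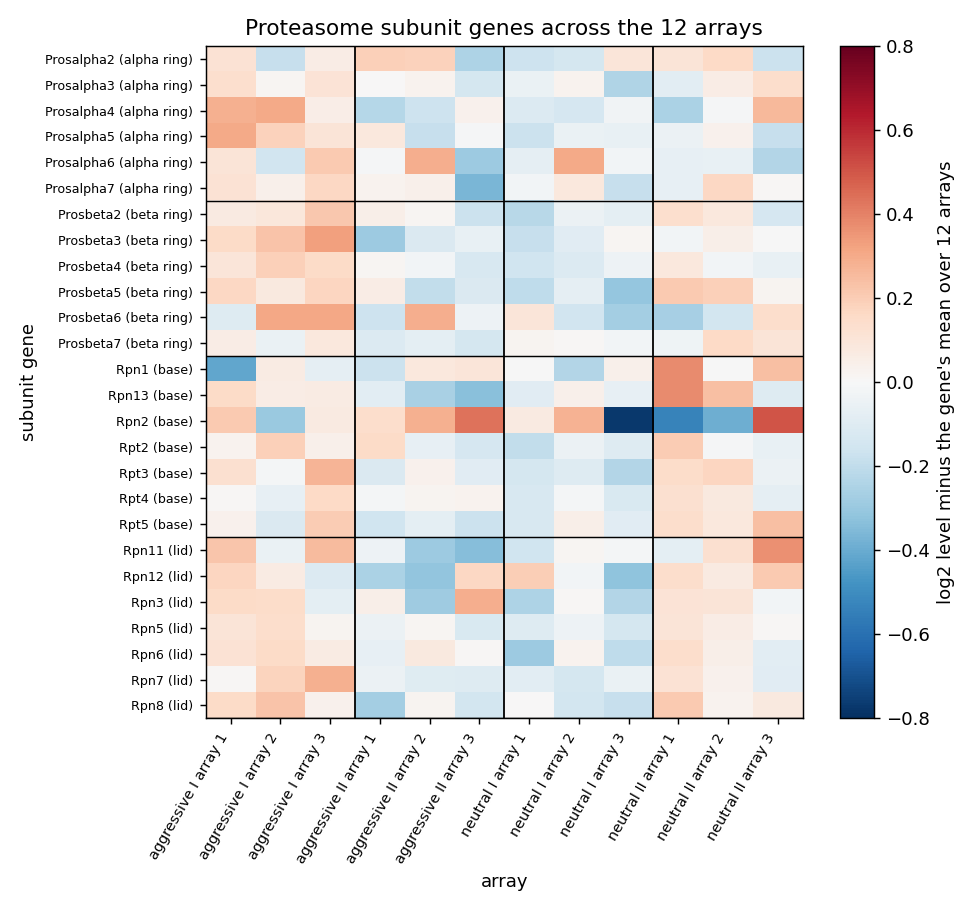
Level of the 26 standard subunit genes (rows, grouped by alpha ring, beta ring, base and lid) on the 12 arrays (columns, grouped by population), as log2 level minus the gene's own mean over the arrays. Most rows are above their mean in aggressive I and below it in neutral I, and Rpn2 has the largest SD (0.40).

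No proteasome subunit gene passed the test between aggressive and neutral heads. Of the 26 genes, 0 passed at an adjusted p of 0.05 (limma with population as a random block, Benjamini-Hochberg over all probe sets), beside 0.191% of all kept probe sets. At an unadjusted p of 0.05 the count was again 0 of 26, beside 6.78% of all. The 6 aggressive arrays overlapped the 6 neutral arrays for all 26 genes, in signal and in centred log2 level. Of all probe sets, 1.23% showed no overlap in centred log2 level. In signal 0.621% showed none with aggressive arrays higher and 0.609% with aggressive arrays lower. Centring subtracts the median log2 level of each array, so the order of arrays can differ between both scales. Differences ran from -0.14 (Rpn1) to 0.28 (Rpn2) on the log2 scale, with 20 of 26 above 0, beside 51.8% of all probe sets. The SE of a difference had a median of 0.11 over the 26 genes and 0.14 over all kept probe sets. The 95% intervals reached at most -0.41 on the low side and 0.77 on the high side, the latter a 1.70-fold difference for Rpn2. The random block entered every gene's fit with the same correlation, 0.0645, rather than a value of its own. With 2 populations per regime, these intervals may be too narrow for genes whose level differs between populations of the same regime.

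In the core particle, 11 of 12 genes lay above 0 in aggressive minus neutral, with a median log2 difference of 0.068, which was between 0.035 (without aggressive I array 3) and 0.097 when each array was left out in turn. The median over all 8379 probe sets was 0.0066. Leaving out the aggressive I population changed the core median to -0.00094, with 6 of 12 above 0, and leaving out aggressive II changed it to 0.17. In the regulatory particle 9 of 14 genes lay above 0, with a median of 0.042. It ranged from 0.020 (without aggressive I array 3) to 0.068 (without neutral II array 1) with single arrays left out, and was -0.038 without aggressive I and -0.048 without neutral I.

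Prosalpha5 (CG10938), an alpha ring subunit, had the smallest p of the 26. Its signals were 6856, 6409.7 and 5845 on the arrays of aggressive I and 5973, 5027 and 5769 in aggressive II, compared with 5177, 5456 and 5673 in neutral I, with 5479, 5636 and 4971 in neutral II. Of the 6 aggressive arrays, 5 had higher signals than every neutral array, and aggressive II array 2 was among the lowest of all. The regime difference was 0.16 (SE 0.095, limma adjusted p = 0.826). Prosbeta6 (CG4097), a beta ring subunit without protease activity, had signals of 10150.0, 13747 and 13334 in aggressive I and 9872, 13844 and 11144 in aggressive II. In neutral I it had 12340.4, 10005 and 9604, and in neutral II 9250.3, 9769.7 and 12339.6. High and low arrays occurred in all 4 populations, and the difference of 0.20 (SE 0.13) had an adjusted p of 0.834.

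Prosbeta4 (CG17331), another beta ring subunit without protease activity, gave 16013, 17264 and 16319 in aggressive I, 15349, 15212 and 14301 in aggressive II, 14054, 14084 and 15481 in neutral I, with 16133, 14584 and 14645 in neutral II. Aggressive I was high here too, with neutral II array 1 inside its range (regime difference 0.10, SE 0.083, adjusted p = 0.867). Prosbeta7 (CG12000) was the single core gene below 0 (difference -0.077, SE 0.078, adjusted p = 0.901). It was measured at 13464, 12572 and 13448 in aggressive I and at 12122, 12615 and 12267 in aggressive II. The neutral signals were 13778, 13205 and 13528 in neutral I, with 12808, 14254 and 14141 in neutral II. For this gene the low population was aggressive II, whose 3 arrays lay below all 6 neutral arrays.

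In the regulatory particle, Rpn6 (CG10149), a lid scaffold that touches the alpha ring, had the smallest p. It measured 7257, 7576 and 6883 in aggressive I, 6517, 7325 and 7088 in aggressive II, 5760.0, 6963 and 6183 in neutral I, with 7556, 6859 and 6457 in neutral II. The low arrays belonged to neutral I, and the regime difference was 0.12 (SE 0.093, adjusted p = 0.861). Rpn2 (CG11888), the largest scaffold of the base, had signals of 2721, 1912 and 2416 in aggressive I and 2629.7, 2965 and 3345 in aggressive II. In neutral I they were 2598, 2906 and 1424, and in neutral II 1615, 1746 and 3431. Its lowest and highest arrays were both neutral, so that the difference of 0.28 came with an SE of 0.23 (adjusted p = 0.866).

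Rpn13 (CG13349), known from yeast and mammals as a ubiquitin receptor, gave 7674, 7298 and 7079.9 in aggressive I, 6596, 5938 and 5705 in aggressive II, 6803, 7235 and 7026 in neutral I, with 9177, 8092 and 6569.8 in neutral II. Its regime difference was -0.14 (SE 0.12, adjusted p = 0.878). It turned to 0.025 without aggressive II, the population with low signals. Rpn1 (CG7762), a base scaffold that docks proteins carrying ubiquitinated cargo, gave 6182, 8766 and 7695 in aggressive I, 7439, 9034 and 9271 in aggressive II, 8670.5, 7154 and 9065 in neutral I, with 10950.3, 8164 and 9971 in neutral II. Aggressive I array 1 was lowest and neutral II array 1 highest (difference -0.14, SE 0.13, adjusted p = 0.882).

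**Figure D2:**
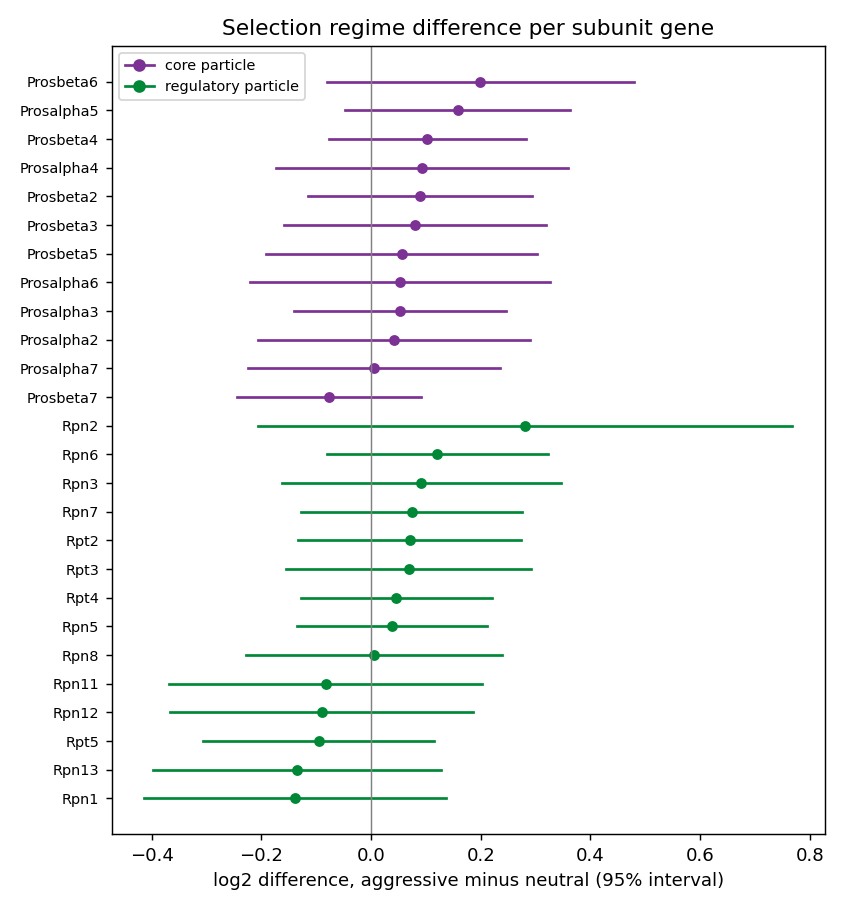
Log2 difference between aggressive and neutral heads for the 26 standard subunit genes, with points for the estimate and lines for its 95% interval from the fit with population as a random block (n = 6 arrays from 2 populations per regime). All 26 intervals include 0, the widest being that of Rpn2, up to 0.77. They may be too narrow for genes whose level differs between populations of the same regime.

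Subunit levels also varied between populations of the same regime. The mean log2 level over all 26 genes, taken relative to its mean over the 12 arrays, was 0.096 ± 0.028 in aggressive I, -0.053 ± 0.026 in aggressive II, -0.089 ± 0.057 in neutral I, with 0.046 ± 0.0052 in neutral II (SD, n = 3 arrays). Every aggressive I array and every neutral II array lay above every array of the other populations. For the core particle the 3 arrays of aggressive I were at 0.13, 0.087 and 0.16 and those of neutral II at -0.026, 0.055 and -0.010. The arrays of aggressive II were at -0.032, 0.0078 and -0.14, and those of neutral I at -0.10, -0.031 and -0.095. For the regulatory particle neutral II was as high as aggressive I, at 0.11, 0.046 and 0.084 against 0.076, 0.049 and 0.086. There aggressive II stood at -0.067, -0.060 and -0.030 and neutral I at -0.093, -0.024 and -0.18. These are means over chosen genes and carry no test.

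**Figure D3:**
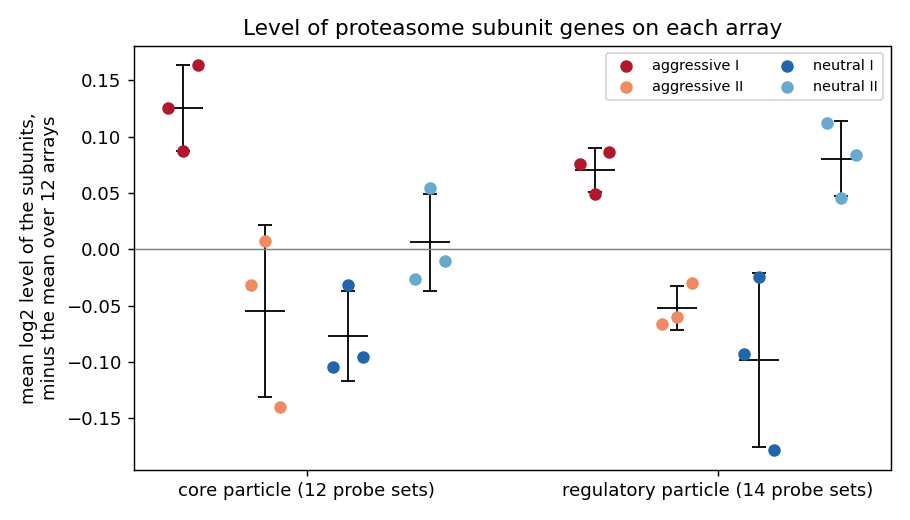
Mean log2 level of the 12 core and the 14 regulatory particle genes on each array (points, coloured by population), minus the mean over the 12 arrays, with population means and SDs as bars (n = 3 arrays). Aggressive I is highest for the core, and for the regulatory particle aggressive I and neutral II (0.070 and 0.081) lie above aggressive II and neutral I (-0.052 and -0.099).

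Gene by gene, 16 of 26 had their highest population mean in aggressive I, 8 in each particle, where 33% of all kept probe sets did. Of the rest, 7 were highest in neutral II (27.3% of all). Neutral I held the lowest mean for 15 of 26 (28.9% of all) and aggressive II for 9 (26.1% of all). Both aggressive means exceeded both neutral means for 3 genes, Prosalpha5, Prosbeta6 and Rpn2, where 16.8% of all probe sets showed that order.

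Single populations were then compared with fixed population means, a fit whose error is the spread between arrays of a population, and 0 of 26 genes passed in any of the 6 comparisons. The shares of all kept probe sets that passed were 0.406% for aggressive I minus neutral I, 1.21% for aggressive I minus neutral II, 0.298% for aggressive II minus neutral I, 0.776% for aggressive II minus neutral II, 0.597% for aggressive I minus aggressive II and 0.286% for neutral I minus neutral II. The comparisons share arrays, so their values for the same genes are not independent. The SE of a difference had a median of 0.11 over the 26 genes.

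The median difference over the core genes was largest between aggressive I and neutral I. Of the 26 genes, 24 were above 0 in aggressive I minus neutral I, beside 56.9% of all probe sets, with medians of 0.25 for the core and 0.19 for the regulatory particle against 0.042 over all. In 13 genes the centred log2 levels of the 3 aggressive I arrays lay above those of the 3 neutral I arrays, where 13.4% of all probe sets did. In signal this held for 8 of the 13 (8.86% of all). An unadjusted p under 0.05 was found for 7 genes (13.1% of all). It was found for 3 after quantile normalization (1007 of all 8379) and for 2 without centring (1053 of all 8379). The medians depended on scaling and were 0.13 and 0.13 after quantile normalization, with 21 of the 26 genes still above 0 (9 core, 12 regulatory). Without centring they were 0.18 and 0.12.

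The other aggressive minus neutral pairs had smaller medians. For aggressive I minus neutral II, 18 of 26 genes were above 0 (51.1% of all), with medians of 0.12 for the core and 0.020 for the regulatory particle, the latter between -0.022 and 0.033 when each array was left out in turn. There 3 genes had aggressive I arrays above all neutral II arrays in centred log2 level (9.87% of all), 2 of them also in signal (8.8% of all). An unadjusted p under 0.05 was found for 3 (12.6% of all). For aggressive II minus neutral I, 16 of 26 were above 0 (51.9% of all), with medians of 0.055 and 0.056, which were 0.014 and 0.022 without aggressive II array 2, and 0 had an unadjusted p under 0.05 (7.95% of all). Prosbeta7 alone had its aggressive II arrays below the neutral I arrays in centred log2 level (6.46% of all), and in signal Prosbeta7 and Rpn13 did (7.4% of all). For aggressive II minus neutral II the order was turned, with 5 of 26 above 0 (44% of all) and medians of -0.068 and -0.13. Prosbeta3, Prosbeta7, Rpn8 and Rpt5 had aggressive II arrays below all neutral II arrays in centred log2 level (9.61% of all). Of these, Prosbeta7 and Rpt5 also did in signal (7.9% of all). In this pair 3 genes had an unadjusted p under 0.05 (9.27% of all). Without aggressive II array 3 the core median of this pair was -0.0032, and after quantile normalization the medians were -0.016 and -0.080.

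Medians within a regime were of similar size. In aggressive I minus aggressive II, 23 of 26 genes were above 0 (56.2% of all), with medians of 0.18 for the core and 0.16 for the regulatory particle against 0.035 over all. Here 11 genes had non-overlapping arrays in centred log2 level with aggressive I higher (11.3% of all), 6 of them also in signal (8.01% of all). An unadjusted p under 0.05 was found for 6 genes (12.9% of all). It was found for 2 after quantile normalization (1071 of all 8379) or without centring (1106 of all 8379). After quantile normalization the medians were 0.088 and 0.072, and without aggressive II array 3 the core median was 0.12. In neutral I minus neutral II, 1 of 26 genes was above 0 (42% of all), with medians of -0.092 and -0.19 against -0.042 over all. The gene above 0 was Prosalpha6, an alpha ring subunit. Prosbeta5, Rpn5, Rpn8, Rpt3 and Rpt5 had neutral I arrays below all neutral II arrays in centred log2 level (9.79% of all). In signal Prosbeta5, Rpn5 and Rpt3 did (7.39% of all), while Prosalpha6 had neutral I arrays above them (also 7.39% of all). In this pair 2 had an unadjusted p under 0.05 (8.43% of all). The core median was -0.021 after quantile normalization and -0.043 without centring, and then 4 and 3 of the 12 core genes were above 0.

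**Figure D4:**
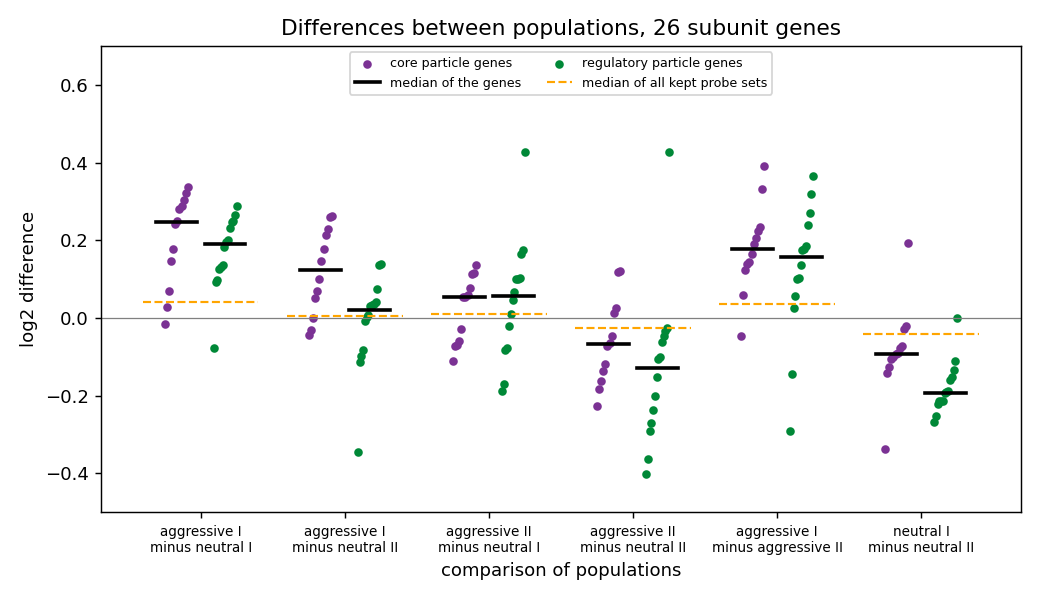
Log2 differences of the 26 subunit genes (points, core and regulatory particle apart) in the 6 comparisons of populations, with the median of each particle (black bars) and of all 8379 kept probe sets (dashed). The medians lie at 0.25 and 0.19 in aggressive I minus neutral I and at -0.068 and -0.13 in aggressive II minus neutral II.

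The difference between the I pair (aggressive I minus neutral I) and the II pair (aggressive II minus neutral II), which share no array, was tested as an interaction. Of the 26 genes 0 passed, beside 0.43% of all probe sets, and 10 had an unadjusted p under 0.05, beside 11.6% of all. The I pair difference was the larger for 24 of 26 genes (58.8% of all), with medians of 0.27 for the core and 0.32 for the regulatory particle against 0.069 over all. After quantile normalization the medians were 0.14 and 0.19, and without centring 0.18 and 0.23. Under each, 6 genes had an unadjusted p under 0.05, beside 901 and 928 of all 8379 probe sets.

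The genes below were picked after their values were seen, for small p-values in these comparisons. Prosbeta5 (CG12323) carries the chymotrypsin-like protease site of the core. Its signals were 12276, 11689 and 12101 in aggressive I, 11576, 9806 and 10554 in aggressive II, 9959, 10580.0 and 9338 in neutral I, with 12893, 12369.8 and 11306 in neutral II. All aggressive I arrays were above all neutral I arrays, and neutral II was as high as aggressive I. The interaction was 0.56 (SE 0.16, 95% interval 0.22 to 0.91, adjusted p = 0.195). Prosbeta3 (CG11981), a beta ring subunit without protease activity, measured 10340.0, 11017 and 11434 in aggressive I, 7682, 8848 and 9321 in aggressive II, 8588, 8882 and 9968 in neutral I, with 9318, 9489 and 9443 in neutral II. Aggressive I was above every other array and aggressive II array 1 was lowest. Its difference between the aggressive populations was 0.39 (SE 0.10, adjusted p = 0.151). This difference passed in 1 of 22 alternatives, with a trended and robust variance (adjusted p = 0.0466). Under that setting 125 of all 8379 probe sets passed in this comparison, against 50 in the main setting.

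Among lid genes, Rpn11 (CG18174), the deubiquitinase, had 3916, 3272 and 3934 in aggressive I, 3297, 2812 and 2753 in aggressive II, 3143, 3448 and 3520.5 in neutral I, with 3225, 3624 and 4440.3 in neutral II. Rpn8 (CG3416), its partner in the lid, had 3996, 4273 and 3596 in aggressive I, next to 2995, 3762 and 3393 in aggressive II, compared with 3781, 3292 and 3346 in neutral I, with 4236, 3621 and 3865 in neutral II. In both, aggressive II and neutral I held the low means, with interactions of 0.56 (SE 0.20, adjusted p = 0.321) and 0.48 (SE 0.16, adjusted p = 0.278). Rpt3 (CG16916), a base ATPase, measured 5114, 4681 and 5575 in aggressive I, 4381, 4941 and 4593 in aggressive II, 4457, 4433 and 4215 in neutral I, with 5287, 5242 and 4630.0 in neutral II (interaction 0.44, SE 0.16, adjusted p = 0.319). Rpt5 (CG10370), another ATPase of that ring, was highest in neutral II, at 13939.5, 13042 and 15024, and lowest in aggressive II, at 11281, 12153 and 11556. It measured 12737, 11621 and 14028 in aggressive I and 11971, 13062 and 12385 in neutral I.

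Other measures also differed between the populations. The fat body markers, of which 4 of 5 probe sets passed the filter, had summed signals of 208057 to 219458 in aggressive I and 197919 to 219268 in neutral II. They were 171446 to 200436 in aggressive II and 165693 to 180465 in neutral I. In this list the storage protein gene Lsp2 had 88989 ± 2253 in aggressive I, 61327 ± 4451 in aggressive II, 53629 ± 4774 in neutral I, with 91318 ± 4445 in neutral II (SD, n = 3). The genes apolpp and Fbp1 did not share this order. Both apolpp probe sets had their lowest mean in neutral II (89329 and 29362), and Fbp1 was highest in aggressive II (1125). Yp1, under the filter, had population means of 451.5 to 502.6. The neuronal markers (3 of 6 probe sets kept) had summed signals of 14042 to 17284 in aggressive I and 14680 to 16706 in neutral II, with 16929 to 18296 in aggressive II and 17215 to 17825 in neutral I. The 18S rRNA control signal was 15072 ± 9529 in aggressive I, 5158 ± 262.0 in aggressive II, 5992 ± 772.4 in neutral I, with 7271 ± 3504 in neutral II. On single arrays it was 9471, 26074 and 9670 in aggressive I and 4126, 11049 and 6638 in neutral II. Neutral II array 1 had the lowest 18S rRNA signal of all 12. Within neutral II, the core means had the same order of arrays as this signal, and the regulatory particle means had the opposite order. Summed signals of the glial (4 probe sets, all kept), muscle (4, all kept), photoreceptor (3, all kept) and haemocyte (2, both kept) markers spanned 59402 to 69794, 54418 to 69028, 76473 to 102615 and 5481 to 7229 over the 12 arrays. Neutral II had the lowest muscle sums (54418 to 55688, against 57903 or more on the other arrays). It had the highest haemocyte sums (6913.5 to 7229, against 6762.5 or less). Its photoreceptor sums (76473 to 92850) lay below those of aggressive II and neutral I. Of the 4 muscle probe sets 1, that of TpnC41C, passed in aggressive minus neutral (0.79, SE 0.13, limma adjusted p = 0.0281), beside 0.191% of all kept probe sets. The part of cell type and RNA sample in the subunit levels was not tested.

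Across the 12 arrays the subunit genes varied together to a moderate degree. The median Pearson r over the 325 pairs of the 26 genes was 0.31, with 0.36 among core genes, 0.28 among regulatory particle genes and 0.29 between the particles, beside 0.012 over all pairs of kept probe sets. The genes share arrays and their scaling. When each population's mean was taken out, the median r was 0.031 over the 325 pairs, 0.11 within the core and -0.049 within the regulatory particle. With the mean of the other 25 genes, Rpn5 (r = 0.86), Rpt3 (0.85) and Prosbeta5 (0.85) correlated most over the 12 arrays. Rpn1 (-0.19), Rpn2 (-0.11), Prosalpha6 (0.067) and Prosalpha2 (0.086) correlated least. Rpn1 and Rpn2 are both base scaffolds, while the base ATPases Rpt2, Rpt3, Rpt4 and Rpt5 had r from 0.54 to 0.85. The closest pairs were Prosbeta4 with Prosbeta2 (r = 0.87), Rpt4 with Rpt3 (0.86) and, across the particles, Rpn7 with Prosbeta4 (0.86).

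The paralogs gave little signal in these male heads. All 13 probe sets, 9 for core and 4 for regulatory particle genes, had a mean under the filter, with array signals from 16.2 to 1040. Of 156 array values, 7 exceeded 641.2, of which 4 were Rpt4R (CG7257). Signals at this level were erratic, and the highest array was a median of 10.97 times the lowest. Of the 5 testis markers, dj and betaTub85D were also under the filter, with medians of 56.5 and 303.8, while Mst84Da, Mst87F and Mst98Ca were above it, with medians of 1353, 1280.4 and 744.2. Summed signal of that list was 3141 to 4211 in aggressive I, 4450 to 4990 in aggressive II, 3807 to 5091 in neutral I and 3229 to 3563 in neutral II.

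Tested without a filter, 0 of these 15 dim probe sets passed in aggressive minus neutral, beside 0.0716% of all 13966 probe sets, and 3 had an unadjusted p under 0.05, beside 6.62% of all. Prosbeta4R1 (CG17301) had 107.6, 177.0 and 50.9 in aggressive I, next to 29.5, 95.1 and 48.4 in aggressive II, compared with 163.8, 114.5 and 370.3 in neutral I, with 161.8, 176.4 and 254.9 in neutral II. Most aggressive arrays were lower, with 1 aggressive I array inside the neutral range (difference -0.73, SE 0.22, adjusted p = 0.430). Prosbeta4R2, which lies 1 coding gene away from it in the genome, also had lower means in aggressive I and II. They were 98.5 and 47.7, against 186.8 and 111.3 in neutral I and II. Its arrays overlapped widely, from 16.2 to 205.0 in aggressive and from 28.4 to 260.9 in neutral heads (difference -0.44, SE 0.33, adjusted p = 0.853). Prosbeta2R2 (CG12161) was high in neutral I, at 436.1, 481.4 and 1040, while its other 9 arrays lay between 86.9 and 221.1. The largest difference for it was aggressive II minus neutral I (-1.61, SE 0.27, adjusted p = 0.0628 over all probe sets). For neutral I minus neutral II it was 1.31 (adjusted p = 0.215).

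Prosalpha7 and Prosbeta6 each had a second probe set, which was below the filter, and levels of different probe sets are not comparable. Prosalpha7 (CG1519) gave 4827, 4624 and 4892 in aggressive I, 4595, 4715 and 3596 in aggressive II, 4602, 4809 and 4149 in neutral I, with 4318, 4947 and 4567 in neutral II with its kept probe set, and from 72.2 to 158.3 with the other. The second probe set of Prosbeta6 lay between 62.4 and 693.8, and its regime difference of -0.69 (SE 0.29, adjusted p = 0.721, no filter) had the opposite sign to that of the kept one. For the second probe set of Prosalpha7 the regime difference was -0.23 (SE 0.11, adjusted p = 0.750, no filter). It too had the opposite sign to that of the kept one.

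**Figure D5:**
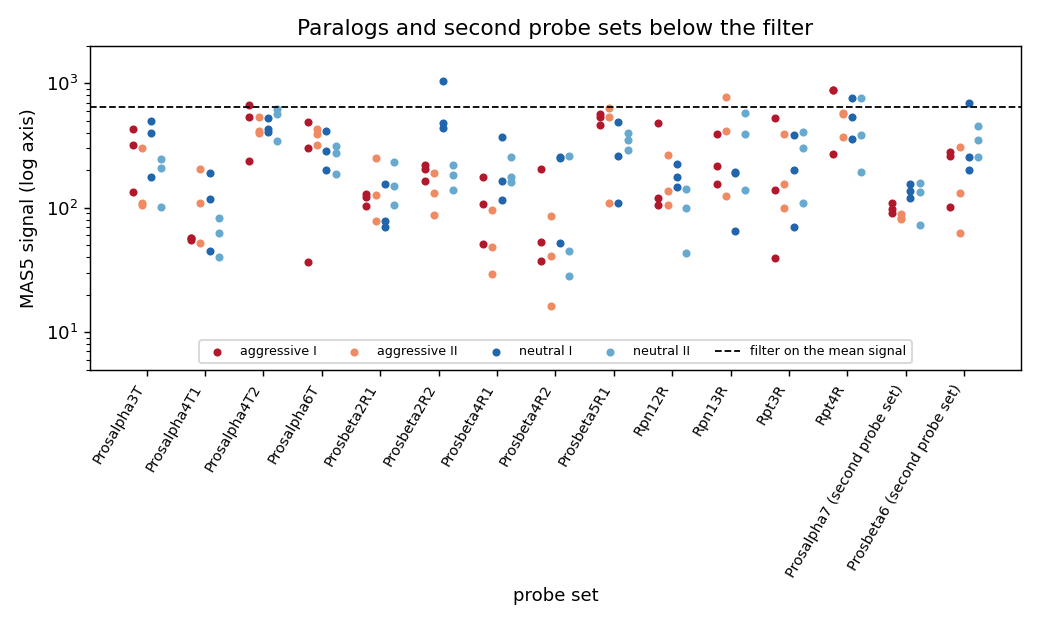
MAS5 signal on a log axis of the 15 probe sets below the filter (13 paralogs and the second probe sets of Prosalpha7 and Prosbeta6), each point an array, coloured by population, with the filter on the mean signal (641.2) as a dashed line. Prosbeta2R2 stands out with its 3 neutral I arrays (436.1 to 1040) above the other 9.

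Genes that work with the proteasome gave no calls either. Proteasome assembly and regulation genes, such as the assembly chaperone gene Pomp and the transcription factor gene cnc, had 12 kept probe sets for 10 genes, and 0 passed in aggressive minus neutral (8 above 0, median 0.052). The smallest p belonged to maf-S, the small Maf partner of cnc, with a difference of 0.18 (SE 0.10, adjusted p = 0.803). The list's median was 0.17 in aggressive I minus neutral I and -0.054 in aggressive II minus neutral II. Ubiquitin supply, conjugation and delivery genes (24 kept probe sets, 24 genes) were split 12 above and 12 below 0, with a median of -0.0072 and 0 passing. Npl4, a cofactor of the unfolding ATPase TER94, had the smallest p (0.15, SE 0.083, adjusted p = 0.795). Their median was 0.054 in aggressive I minus neutral I, beside 0.042 over all probe sets, and -0.038 in aggressive II minus neutral II.

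The COP9 signalosome is a complex built much like the lid that removes the ubiquitin-like protein Nedd8 from cullins. Of its 7 kept genes, 0 passed and 4 were above 0 in aggressive minus neutral (median 0.038). CSN1b had 2378 ± 495.2 in aggressive I, next to 2629 ± 413.7 in aggressive II, compared with 3127 ± 636.0 in neutral I, with 4187 ± 374.5 in neutral II (SD, n = 3). Its difference was -0.50 (SE 0.17, adjusted p = 0.457). CSN6 stood at -0.61 (SE 0.28, adjusted p = 0.731), with signals from 525.9 to 2162 on aggressive and from 1567 to 2712 on neutral arrays. These lists and the subunit genes share the same arrays, and 0 of their probe sets passed in any of the 8 comparisons.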

How the data were processed

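The deposited table holds MAS5 signal intensities on a linear scale for 12 single-colour Affymetrix arrays, made by the authors with MAS5 per the submitters' processing notes (the sources used here name no version). From the values, arrays had been scaled to a common trimmed mean of 2500 (lowest and highest 2% set aside), so total RNA is not measured. Groups came from the sample titles. Probe sets were named through the array annotation and the RefSeq gene table (Release 6 plus ISO1 MT), and 0 symbols changed. No sequence was used.

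Signals were transformed as log2(intensity + 94.6), the 10th percentile of all values, and centred on each array's median. This understates changes of dim probe sets. The 44 control probe sets were left out, and the filter required a mean over the 40th percentile, which 8379 probe sets met. Differences were tested with limma 3.58.1 in R 4.3.3 across all kept probe sets, with Benjamini-Hochberg adjustment at 0.05. Aggressive minus neutral used population as a random block (statmod 1.5.0, consensus correlation 0.0645), and the other 7 comparisons used fixed population means. The number of arrays limits the precision. The fit was also run on simulated data. These held no variation between populations of a regime, so that run could not check the random block. Replicate numbers did not pair arrays, as deviations of same-numbered arrays correlated between -0.081 and 0.099.

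Members, lists and tests were chosen with earlier results of these data known. Array values were given for members with an adjusted p under 0.05 in any comparison (0), for the 4 core and 4 regulatory particle members with the smallest p in aggressive minus neutral, and for genes with several probe sets. From each other list, up to 3 genes with the smallest p could be named. Alternatives changed scaling, pseudocount, filter, variance model, replicate block, arrays and populations.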

Additional observations from a re-analysis of the deposited data

Results flagged for a closer look

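Among the 6 arrays of each regime, 1 of 52 tests on the 26 subunit genes found an array far from the others, where chance gives about 1 in 20. The alpha ring gene Prosalpha7 was lowest on aggressive II array 3, with a signal of 3596 against 4595 on the next lowest aggressive array. In centred log2 level that gap was 0.739 of the range of the aggressive arrays, above the 95% critical value of Dixon's test for 6 values.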

How the results depend on the processing

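The count of subunit genes passing stayed at 0 in aggressive minus neutral under all 28 alternatives and in 6 of the other 7 comparisons under all 22. The exception was 1 gene, Prosbeta3, in aggressive I minus aggressive II with a trended and robust variance. There 125 of all 8379 probe sets passed, against 50 in the main setting. With the replicate block the count of subunit genes passing was 0 in all 8 comparisons. The medians could not move, because every population holds each replicate number once. Genes with an unadjusted p under 0.05 went from 10 to 7 in the interaction (921 of all 8379 with the block). They went from 6 to 4 in aggressive I minus aggressive II (1040 of all) and from 3 to 1 in aggressive I minus neutral II (1017 of all). Replicate numbers did not pair arrays, since same-numbered arrays correlated at 0.099 at most.

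Median log2 differences are given for core, then regulatory particle genes. Quantile normalization changed them to 0.13 and 0.13 in aggressive I minus neutral I, 0.088 and 0.072 in aggressive I minus aggressive II, -0.021 and -0.14 in neutral I minus neutral II, 0.14 and 0.19 in the interaction and -0.016 and -0.080 in aggressive II minus neutral II, and the core median to 0.031 in aggressive II minus neutral I. Without centring they were 0.18 and 0.12 in aggressive I minus neutral I and 0.18 and 0.23 in the interaction, and the regulatory median was 0.11 in aggressive I minus aggressive II and -0.14 in neutral I minus neutral II. Under each of these scalings, 1 gene had an unadjusted p under 0.05 in aggressive I minus neutral II (3 in the main setting) and 1 in neutral I minus neutral II (2 in the main setting). Over all 8379 probe sets the counts were 1058 and 1089 in the former and 679 and 676 in the latter.

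Leaving out 1 array at a time gave medians of 0.035 to 0.097 and 0.020 to 0.068 in aggressive minus neutral and of 0.014 to 0.088 and 0.022 to 0.056 in aggressive II minus neutral I. It gave core medians of -0.093 to -0.0032 in aggressive II minus neutral II, 0.12 to 0.21 in aggressive I minus aggressive II and 0.22 to 0.32 in the interaction, and regulatory medians of 0.27 to 0.37 in the interaction. The number of subunit genes with an unadjusted p under 0.05 then ranged from 4 to 9 in aggressive I minus neutral I, from 2 to 6 in aggressive I minus aggressive II and from 6 to 10 in the interaction. Over all 8379 probe sets the counts ranged from 878 to 1105, from 880 to 1108 and from 778 to 1002. Without both neutral I arrays whose line label lacks the word selected, the regulatory median was -0.24 in neutral I minus neutral II. Without the pair of arrays that correlated least with the others (aggressive I array 2 and neutral I array 3), it was 0.24 in the interaction. Leaving out whole populations moved aggressive minus neutral: to -0.00094 and -0.038 without aggressive I, 0.17 and 0.11 without aggressive II, and 0.13 and 0.11 without neutral II, and the regulatory median to -0.048 without neutral I. Of the 8 genes named by rule, Rpn13 changed sign without aggressive II (0.025). The cause was not tested.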
